A study of Mus musculus with 8 samples.

Results

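Megakaryocytes are the large blood-forming cells that shed platelets, the small cell fragments that stop bleeding. In the mouse both can be present in the spleen, which keeps blood formation into adult life and holds a pool of circulating platelets, and the transcripts a platelet carries come from its parent megakaryocyte. Platelets catch damaged vessel wall with the GPIb-IX-V receptor, bind fibrinogen and each other with the integrin αIIbβ3, and release chemokines and clotting proteins from their granules. The genes described here are 8 widely used marks of that lineage, Pf4, Ppbp, Itga2b, Itgb3, Gp9, Gp1bb, Treml1 and Clec1b. They were taken as a named set, and each was read from the probe set that is annotated to that gene alone and has the highest mean over all arrays. All 8 passed the filter on dim probe sets and belong to the 11189 genes tested, out of 18193 genes before the filter. The 8 genes had 10 probe sets annotated to them alone.

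The arrays hold RNA of spleen cells from 8 male mice of the strain given as C57/BL6, with 1 mouse per Affymetrix mouse expression array. HMGA1a transgenic mice (TG) of 12 months, wild-type littermates (WT) of 12 months, TG mice of 2 months and WT mice of 2 months form 4 groups of 2, each with a replicate 1 and a replicate 2. The design text describes lymphoid tumours as established in TG mice at 12 months and not yet present at 2 months. HMGA1a is a chromatin protein that binds AT-rich DNA. The labels name neither the promoter that drives the transgene nor the line, and its level was not analysed here. They call the replicates biologic without saying how the mice or RNA preparations were paired.

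Values are MAS5 signals, a linear brightness per probe set that the authors scaled per array. Signals of different probe sets are not set against each other, since brightness depends on the probes as well as on the RNA. Arrays had median signals of 44.9 to 49.5, with 25.0% to 28.7% of probe sets under a signal of 16. The replicate 1 TG array of 12 months stood apart: 24.5% of the genes tested had their lowest value of the 8 arrays there. Its list of 9 B cell genes lay at a mean log2 deviation of -0.78 from the gene means and its list of 10 T cell genes at 0.71, the lowest and highest of any array. The WT replicate 1 array of 2 months carried exocrine pancreas genes at a mean deviation of 3.84. B cell and T cell genes had signal on every array, with summed signals of 26259.6 to 47579.9 and of 4102 to 10702. In RNA from whole spleen cells, fewer cells of a type and less RNA per cell cannot be told apart. Differences are given on the log2(signal + 16) scale, which understates changes of dim genes. The test was limma over all genes tested, with adjusted p-values by Benjamini-Hochberg and a threshold of 0.05.

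The stretches of DNA around the starts of these genes were read from the RefSeq promoter table (build GRCm38.p6), which runs from 250 bases before the start to 50 bases after it and held 7 of the 8 genes. They are shown as background on these genes, and any part of the sequences in the array values was not tested. GATA1, a transcription factor of the megakaryocyte and red cell lineages, is known to bind sites with the letters GATAA, here searched on both strands (GATAA or TTATC). A match was found in 3 of 7 windows, those of Pf4, Gp9 and Clec1b, and in 25.4% of all 32851 promoters of the table. The letters GGAAG or CTTCC were searched as a longer form of the GGAA core bound by ETS factors such as FLI1. They were found in 6 of 7 windows, all but that of Clec1b, and in 71.4% of all promoters. The window of Clec1b still holds the shorter letters GGAA. A match of one motif can share its end letter with a match of the other. The windows with a GATAA match are printed with it in capitals, followed by that of Itga2b, the gene with the clearest difference between the replicates, which has no such match and so no capitals. They lie at chr5:90772185-90772484 on the plus strand (Pf4), chr6:87777820-87778119 on the plus strand (Gp9), chr6:129397047-129397346 on the plus strand (Clec1b) and chr11:102469834-102470133 on the minus strand (Itga2b), and read 5′ to 3′ in the direction of the gene.
Pf4: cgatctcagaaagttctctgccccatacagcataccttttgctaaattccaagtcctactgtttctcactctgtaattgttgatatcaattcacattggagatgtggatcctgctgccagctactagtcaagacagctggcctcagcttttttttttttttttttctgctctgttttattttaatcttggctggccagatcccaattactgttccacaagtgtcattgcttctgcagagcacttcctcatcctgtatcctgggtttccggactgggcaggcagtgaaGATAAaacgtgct
Gp9: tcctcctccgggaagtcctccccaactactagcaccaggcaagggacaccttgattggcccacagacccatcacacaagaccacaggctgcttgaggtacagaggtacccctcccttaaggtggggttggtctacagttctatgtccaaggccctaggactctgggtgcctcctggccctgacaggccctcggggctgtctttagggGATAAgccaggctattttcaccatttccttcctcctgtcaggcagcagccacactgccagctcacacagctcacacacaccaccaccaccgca
Clec1b: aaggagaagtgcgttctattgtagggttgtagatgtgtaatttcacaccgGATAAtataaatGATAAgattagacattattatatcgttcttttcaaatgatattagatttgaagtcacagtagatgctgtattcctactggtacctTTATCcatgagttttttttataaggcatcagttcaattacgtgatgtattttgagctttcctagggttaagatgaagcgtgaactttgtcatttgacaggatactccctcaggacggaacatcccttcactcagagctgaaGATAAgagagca
Itga2b: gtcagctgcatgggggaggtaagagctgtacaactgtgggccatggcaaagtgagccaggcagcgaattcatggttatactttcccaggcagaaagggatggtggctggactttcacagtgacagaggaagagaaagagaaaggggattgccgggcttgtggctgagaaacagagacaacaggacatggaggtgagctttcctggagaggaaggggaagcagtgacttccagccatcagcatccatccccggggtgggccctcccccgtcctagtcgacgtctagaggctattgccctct
Clec1b has 4 matches, whose first letters stand at positions -200, -188, -103 and 39, counted with 1 as the first base of the gene and -1 as the base before it. Pf4 has 1 match, at position 38, and Gp9 has 1, at position -43. Ppbp and Pf4 are neighbouring coding genes on chromosome 5, Itga2b and Itgb3 both lie on chromosome 11, and Gp9 and Clec1b on chromosome 6. Gp1bb, on chromosome 16, is followed directly by Septin5, and a probe set annotated to both was not used. Treml1 lies on chromosome 17 beside Trem2.

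The chemokines come first. Pf4, platelet factor 4 of the α-granules, had signals of 963 and 1794 in the TG mice of 12 months (replicates 1 and 2), against 1599 and 1529 in the WT mice of 12 months. At 2 months it had 1358 and 2085 in TG mice, against 1353 and 1843 in WT mice. The lowest value was that of the replicate 1 TG mouse of 12 months, the highest that of the replicate 2 TG mouse of 2 months, and the TG and WT values overlapped at both ages. Ppbp, the precursor of another granule chemokine, CXCL7, had 1658 and 2892 in TG mice of 12 months, against 2587 and 2189 in WT mice of 12 months. At 2 months it had 2037 and 3168 in TG mice, against 2072 and 2808 in WT mice. Ppbp and Pf4 had the same lowest and the same highest array, and the WT mice of 12 months were the only group in which replicate 1 was above replicate 2 for either gene.

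The integrin subunits αIIb and β3 together make the fibrinogen receptor of platelets, and β3 is also made by other cells, such as endothelium. Itga2b (αIIb, CD41) had signals of 223 and 483 in TG mice of 12 months, against 432 and 538 in WT mice of 12 months. At 2 months Itga2b had 341 and 602 in TG mice, against 299 and 492 in WT mice. Replicate 2 was the brighter mouse of every pair, and at 12 months the TG replicate 2 value lay between the WT values. Itgb3 (β3) had 156 and 308 in TG mice of 12 months, against 319.6 and 336 in WT mice of 12 months. Its values at 2 months were 287 and 349 in TG mice, against 287 and 375 in WT mice. Both TG values of 12 months lay under both WT values, the replicate 2 TG value narrowly, and at 2 months the groups overlapped. A second probe set annotated to Itgb3 alone was dim, at signals of 5.60 to 63.6, and its TG minus WT log2 difference at 12 months was 0.10.

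Gp9 and Gp1bb encode subunits of the GPIb-IX-V complex, the platelet receptor for von Willebrand factor. Gp9 had signals of 88.9 and 136 in TG mice of 12 months, against 135 and 164 in WT mice of 12 months. At 2 months Gp9 had 118 and 156 in TG mice, against 122 and 130.4 in WT mice. The lower WT value of 12 months lay just under the higher TG value, so the groups overlapped, and they did so at 2 months. Gp1bb had 121 and 226 in TG mice of 12 months, against 218 and 212 in WT mice of 12 months. At 2 months Gp1bb had 179.5 and 277 in TG mice, against 170.4 and 249.9 in WT mice. The groups overlapped at both ages. The second probe set of Gp1bb that passed the filter had 64.3 and 99.5 in TG mice of 12 months, against 71.5 and 145 in WT mice of 12 months, and was lowest on the WT replicate 1 array of 2 months, at 55.8.

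The remaining receptors are Treml1, a receptor stored in α-granules that reaches the platelet surface on activation, and Clec1b, which encodes CLEC-2, the platelet receptor for podoplanin. Treml1 had signals of 213 and 290.1 in TG mice of 12 months, against 259 and 273 in WT mice of 12 months. At 2 months Treml1 had 266 and 342 in TG mice, against 231 and 338 in WT mice. Its highest value over its lowest gave the smallest ratio of the 8 genes, and its groups overlapped at both ages. Clec1b had 365 and 593 in TG mice of 12 months, against 818 and 608 in WT mice of 12 months. At 2 months Clec1b had 705 and 576 in TG mice, against 536 and 511 in WT mice. Both TG values lay under both WT values at 12 months and above both at 2 months, narrowly so for replicate 2 at 12 months.

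**Figure D1:**
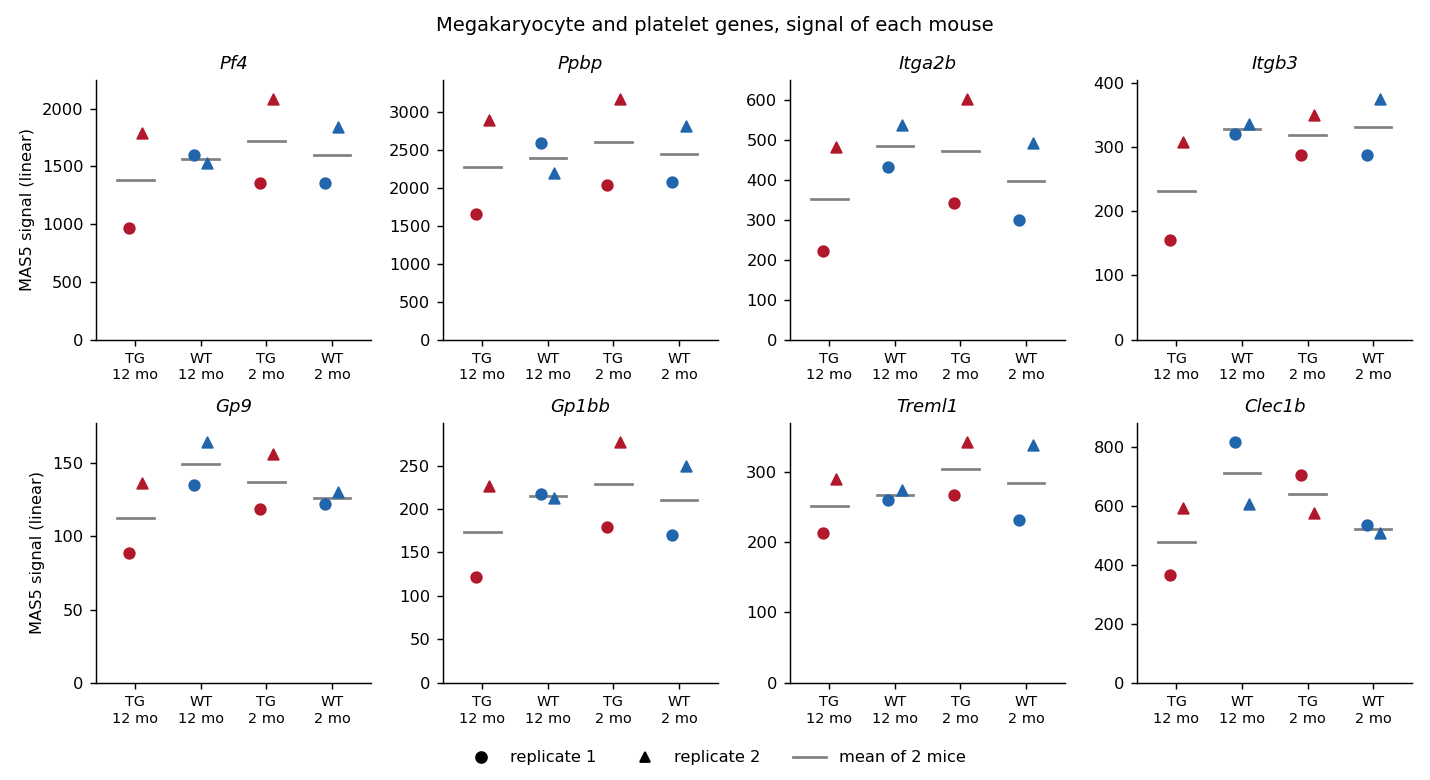
Signal (MAS5, linear, each panel with its own axis from 0) of each of the 8 genes in the 4 groups, TG in red and WT in blue, with circles for replicate 1, triangles for replicate 2 and a grey bar for the mean of 2 mice. In every panel the lowest point is the replicate 1 TG mouse of 12 months, at 963 for Pf4 and 365 for Clec1b.

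Read from the brightest probe set of each, all 8 genes had their lowest signal on the same array, that of the replicate 1 TG mouse of 12 months. The share of all genes tested that were lowest there was 24.5%. The log2 value of the 8 genes lay below the gene's own mean by between 0.34 and 0.85 there, with a mean deviation of -0.62, against a median of -0.05 over all genes tested. The distance to the next-lowest array was -0.82 for Itgb3 and -0.48 for Pf4, but -0.11 for Treml1, the smallest. The mean deviation on the other 7 arrays ran from -0.18 (WT replicate 1 of 2 months) to 0.33 (TG replicate 2 of 2 months). On the TG replicate 2 array of 12 months it was 0.14, with all 8 genes above their means. The second probe sets of Gp1bb and Itgb3 were lowest elsewhere, on the WT arrays of 2 months (replicate 1 for Gp1bb, replicate 2 for Itgb3). All 8 genes were still lowest on the replicate 1 TG array of 12 months after quantile normalization and after cyclic loess. In these alternatives, chosen after seeing the data, 23.7% and 22.6% of all genes were lowest there.

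**Figure D2:**
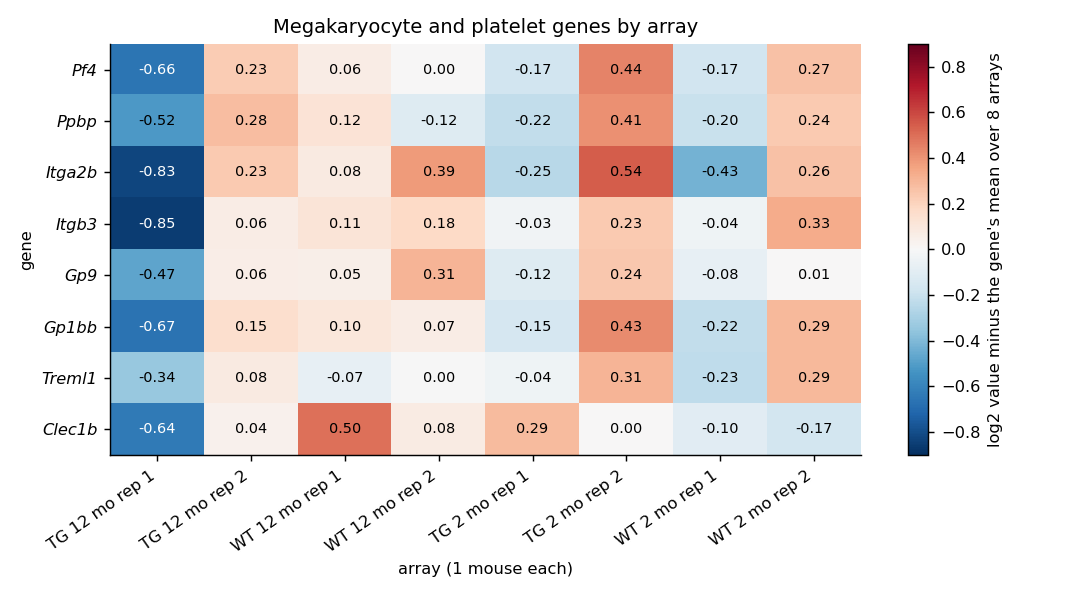
Log2(signal + 16) of each gene on each array minus the gene's mean over 8 arrays, as colour and as numbers, with genes as rows and arrays (1 mouse each) as columns. The left column is below 0 for all 8 genes, from -0.85 for Itgb3 to -0.34 for Treml1. Clec1b is highest on the replicate 1 WT array of 12 months, and 5 other genes are highest on the replicate 2 TG array of 2 months.

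Other genes also moved on that array. Of the lists of other blood and spleen cells, 8 of 9 B cell genes and 11 of 18 macrophage and monocyte genes were lowest there. The macrophage list had a mean deviation of -0.59. Of 10 T cell genes 7 were highest there, and the share of all genes highest there was not counted. Of 16 endothelial and stromal genes 10 were lowest there, at a mean deviation of -0.31, while of 19 erythroid genes only 1 was, at -0.15. The Gapdh control signal of the 3′ end over that of the 5′ end, a measure of RNA and labelling quality, was 0.843 on that array and 1.01 to 1.73 on the others. The same ratio of the β-actin control was 1.20 there, inside the 1.10 to 1.48 of the others. The part of these differences in the low platelet gene values was not tested.

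Between TG and WT mice of 12 months no difference in these genes passed the test. Of the 11189 genes 0% passed the limma test and 0 of 8 platelet genes did, while 865 genes and 0 platelet genes had an unadjusted p under 0.05. An ordinary linear model without moderation also called 0 genes, with 927 at an unadjusted p under 0.05. All 8 log2 differences were below 0, as were those of 54.8% of all genes, with a median of -0.36 against -0.03 over all genes. The widest was that of Clec1b, which averaged 479 ± 161 in TG mice and 713 ± 149 in WT mice (SD, n = 2 each), a log2 difference of -0.58 ± 0.26 (SE, limma adjusted p = 0.652). Itgb3 averaged 232 ± 108 in TG mice and 328 ± 11.3 in WT mice (SD, n = 2 each), a log2 difference of -0.54 ± 0.30 (SE, limma adjusted p = 0.727). These 2 genes were also the ones with both TG values under both WT values, a pattern that 19.9% of all genes tested had.

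The other 6 genes had log2 differences of -0.53 ± 0.41 for Itga2b, -0.38 ± 0.25 for Gp9, -0.34 ± 0.33 for Gp1bb, -0.25 ± 0.33 for Pf4, -0.12 ± 0.32 for Ppbp and -0.09 ± 0.25 for Treml1 (SE). Their limma adjusted p-values lay between 0.761 and 0.966. The replicates did not show the same thing. Within replicate 1 the TG mouse was lower for all 8 genes, with a median log2 difference of -0.74 and a range of -1.13 (Clec1b) to -0.27 (Treml1). Of the 11189 genes tested 4927 were higher in that TG mouse, and the median over all genes was -0.05. Within replicate 2 the median of the 8 was 0.02, with Ppbp at 0.40 and Pf4 at 0.23 higher in the TG mouse and Gp9 at -0.24 and Itga2b at -0.15 lower. Leaving out the TG mouse of replicate 1 at 12 months gave a median over the 8 differences of 0.03, and leaving out that of replicate 2 gave -0.72, in each case from a single TG mouse assumed to vary like the other groups. With the replicate number as a block 3 of 8 genes had an unadjusted p under 0.05, as did 19.9% of all genes tested, and 0 of 8 passed the limma test, the smallest adjusted p being 0.171 for Itga2b.

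Between TG and WT mice of 2 months the values were close. No gene passed the limma test (0%), with 44 at an unadjusted p under 0.05, and 0 of 8 platelet genes were among either. The ordinary linear model also called 0 genes, with 126 at an unadjusted p under 0.05. The log2 difference was above 0 for 7 of 8 genes, all but Itgb3, against 52.5% of all genes. Clec1b averaged 640.3 ± 91.0 in TG mice and 523 ± 17.8 in WT mice (SD, n = 2 each), a log2 difference of 0.28 ± 0.26 (SE). Itga2b averaged 471 ± 185 in TG mice and 396 ± 137 in WT mice (SD, n = 2 each), a log2 difference of 0.23 ± 0.41 (SE). The other 6 ranged from -0.05 (Itgb3) to 0.10 (Gp1bb), and limma gave all 8 an adjusted p of 1.00. The median of the 8 was 0.10, at 0.04 within replicate 1 and 0.17 within replicate 2, and it was -0.17 without the replicate 2 TG mouse and -0.14 without the replicate 1 WT mouse, against 0.33 and 0.30 without the replicate 1 TG mouse and without the replicate 2 WT mouse.

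**Figure D3:**
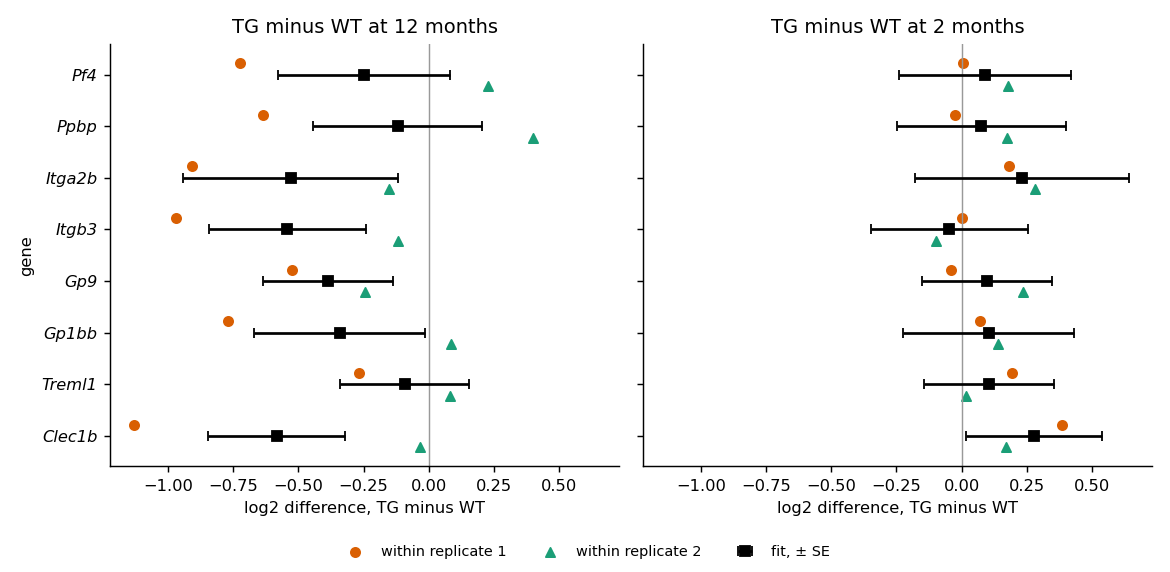
Log2 difference of TG minus WT for each gene at 12 months (left) and 2 months (right), as the fitted difference with its SE over 2 mice a group (black squares) and within replicate 1 (circles) and replicate 2 (triangles). At 12 months every circle lies left of 0, down to -1.13 for Clec1b, while the triangles lie on both sides.

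The TG minus WT difference at 12 months minus that at 2 months was below 0 for all 8 genes, as it was for 56.3% of all genes tested, with a median of -0.46. No gene passed the limma test of this difference (0%), with 213 genes at an unadjusted p under 0.05, and the ordinary linear model called 1 gene, with 415. Of the 8 genes 0 passed and 1, Clec1b, had an unadjusted p under 0.05, at -0.86 ± 0.37 (SE, limma adjusted p = 1.00). Itga2b stood at -0.76 ± 0.58 (SE, limma adjusted p = 1.00). Clec1b and Itga2b were lower in TG mice of 12 months and higher in TG mice of 2 months within both replicates, a pattern that 7.27% of all genes had. Within replicate 1 the median of the 8 was -0.78 and within replicate 2 it was -0.04. It was also -0.04 without the replicate 1 TG mouse of 12 months, and -0.82 without the replicate 2 one. Leaving out the TG mouse of replicate 2 at 2 months gave -0.23, leaving out the WT mouse of replicate 1 at 2 months gave -0.25, and leaving out 1 of the other mice gave -0.65 to -0.41.

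Set against TG mice of 2 months, TG mice of 12 months had lower values of all 8 genes, a direction shown by 56.3% of all genes tested. Of all genes 0.00894%, 1 gene, passed the limma test, and 0 of 8 platelet genes did, none with an unadjusted p under 0.05. The log2 differences ran from -0.50 ± 0.30 for Itgb3 to -0.21 ± 0.32 for Ppbp (SE). Their median was -0.37, at -0.50 within replicate 1 and -0.20 within replicate 2, and 0.0085 without the replicate 1 TG mouse of 12 months. Leaving out the other TG mouse of 12 months gave -0.79, and leaving out a TG mouse of 2 months gave -0.58 (replicate 1) or -0.09 (replicate 2). With the replicate block 21 genes passed and 0 platelet genes. Set against WT mice of 2 months, WT mice of 12 months had higher values for 4 of 8 genes and lower values for 4, with a median log2 difference of 0.03, at 0.28 within replicate 1 and -0.19 within replicate 2. Of all genes 0% passed the limma test, with 171 at an unadjusted p under 0.05 and 0 of the 8 among them, and the ordinary linear model called 0, with 276. Clec1b had the widest difference, 0.42 ± 0.26 (SE), and Itga2b stood at 0.32 ± 0.41 (SE), while the other 6 lay between -0.07 and 0.21. The comparisons of TG with WT and of 12 with 2 months share arrays, so their agreement in sign over these genes is not separate evidence.

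The comparison of the replicates was the only one of the 6 in which any of these genes passed the test. Over all 4 groups, Itga2b was higher in replicate 2, by 0.71 ± 0.13 on the log2 scale (SE, 4 mice against 4, limma adjusted p = 0.00694). Pf4 was higher in replicate 2 by 0.47 ± 0.14 (limma adjusted p = 0.0444), Gp1bb by 0.47 ± 0.14 (limma adjusted p = 0.0470) and Treml1 by 0.34 ± 0.10 (limma adjusted p = 0.0471). These 4 of 8 genes passed the test, all in the same direction, beside 26.3% of all genes tested in either direction and 13.6% higher in replicate 2. Itgb3 at 0.40 ± 0.14, Ppbp at 0.41 ± 0.16 and Gp9 at 0.31 ± 0.12 did not pass (limma adjusted p = 0.0676 to 0.0918), and Clec1b stood at -0.02 ± 0.17 (limma adjusted p = 0.932). The difference was above 0 for 7 of 8 genes and for 55.1% of all genes, with a median of 0.41 for the 8 and 0.04 for all genes.

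Within the groups, replicate 2 was above replicate 1 in all 4 groups for Itga2b, Itgb3, Gp9 and Treml1, which makes 4 of 8 genes against 25.9% of all genes tested. Among TG mice of 12 months all 8 genes were higher in replicate 2, from 0.42 for Treml1 to 1.06 for Itga2b. The share of all genes higher in replicate 2 in that group alone was not counted. Among WT mice of 12 months Pf4 (-0.06), Ppbp (-0.24) and Gp1bb (-0.03) were on the other side of 0. Clec1b was lower in replicate 2 in 3 of 4 groups and higher, by 0.68, only among TG mice of 12 months. Leaving out either TG mouse of 12 months left Itga2b as the only one of the 8 that passed, and so did leaving out either TG or either WT mouse of 2 months. Without either WT mouse of 12 months 5 of 8 passed, with Ppbp added. Pf4 did not pass after cyclic loess (limma adjusted p = 0.0595) or with a gene's probe sets averaged (limma adjusted p = 0.0549), which left 3 of 8. The ordinary linear model called 628 genes and 0 of the 8, with 3 of the 8 at an unadjusted p under 0.05. The second probe set of Gp1bb was also higher in replicate 2, by 0.63 (limma adjusted p = 0.0288, fitted with all probe sets), and that of Itgb3 stood at 0.01.

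**Figure D4:**
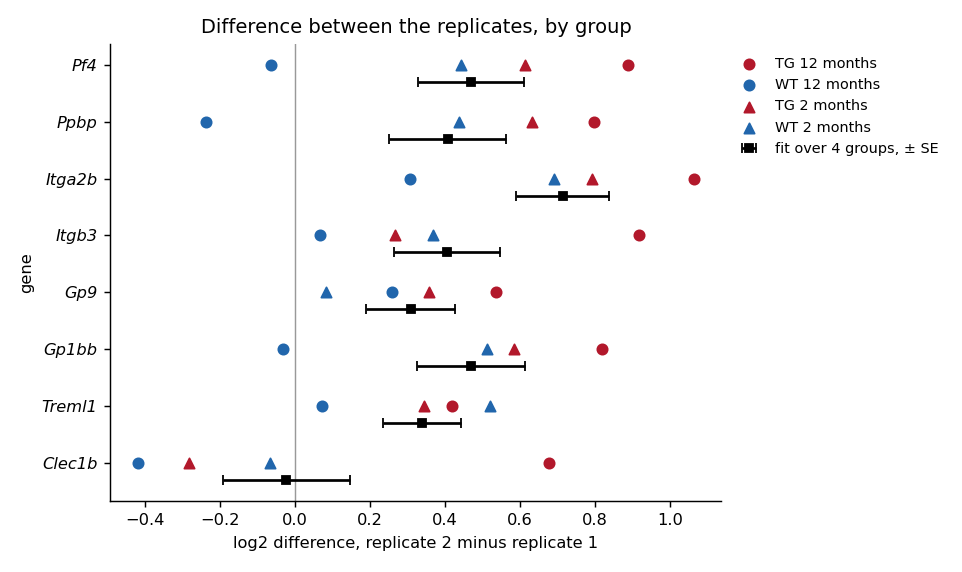
Log2 difference of replicate 2 minus replicate 1 for each gene, with 1 coloured point per group (TG red, WT blue, circles for 12 months and triangles for 2 months) and the difference fitted over 4 groups with its SE as a black square below. The squares of 7 genes lie between 0.31 and 0.71, and that of Clec1b lies at -0.02.

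Lists of other cells also differed between the replicates. Beside them, 55.1% of all genes tested were higher in replicate 2. The test was passed by 13.6% of all genes as higher in replicate 2 and by 26.3% in either direction. Of 19 erythroid genes 18 were higher in replicate 2 and 8 passed the test, all of them higher, with a median log2 difference of 0.58. Of 18 macrophage and monocyte genes 17 were higher in replicate 2, with 5 past the test higher and 1 lower and a median of 0.30, and all 9 B cell genes were higher, with 3 past the test and a median of 0.39. All 15 neutrophil genes were higher in replicate 2, with a median of 0.83, but only 1 passed. All 7 exocrine pancreas genes were lower in replicate 2, with a median of -1.41 and 1 past the test. Their list lay at 3.84 on the WT replicate 1 array of 2 months. On that array all 8 platelet genes were below their own means, at a mean deviation of -0.18. The mean deviation of the erythroid list was -0.73 and 0.74 in TG mice of 2 months and -0.58 and 0.22 in WT mice of 2 months (replicates 1 and 2), so it was wider there than that of the 8 platelet genes. The Gapdh 3′ to 5′ ratio was higher and the same ratio of β-actin lower in replicate 2 in each group. The part of these in the replicate difference of the platelet genes was not tested.

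Over the 8 arrays, 7 of the 8 genes correlated more closely with each other than with Clec1b. The 21 pairs without Clec1b had Pearson correlations of their log2 values between 0.68 (Gp9 with Treml1) and 0.99 (Pf4 with Gp1bb), with a median of 0.88. The 7 pairs with Clec1b lay between 0.28 and 0.65, with a median of 0.49. Without the replicate 1 TG array of 12 months, over 7 arrays, the 21 pairs lay between 0.40 and 0.98 with a median of 0.81, the lowest being Gp9 with Ppbp (0.40) and with Treml1 (0.41), and the 7 pairs with Clec1b lay between -0.37 and -0.09. These points share their arrays, replicate pairs and scaling, and they describe the arrays and test nothing. The highest array was the replicate 2 TG array of 2 months for 5 genes (Pf4, Ppbp, Itga2b, Gp1bb and Treml1), the replicate 2 WT array of 2 months for Itgb3, the replicate 2 WT array of 12 months for Gp9 and the replicate 1 WT array of 12 months for Clec1b.

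The genes outside the set whose log2 value ran most like the mean of the 8, over 8 arrays, were Rasip1 (r = 0.98), Smoc2 (0.98), Cyp4b1 (0.98), Cux1 (0.98) and Mxra8 (0.97), followed by Atg2b, Cd302, Gstm1, F5 and Tnk1 with r down to 0.97. All 10 were lowest on the replicate 1 TG array of 12 months, and over the other 7 arrays their r ran from 0.88 to 0.96. F5, coagulation factor V, which platelets carry in their α-granules, was the only one of the 10 on a platelet list and stood in rank 9. Its signals were 49.2 and 159 in TG mice of 12 months, against 118 and 155 in WT mice of 12 months. At 2 months F5 had 111 and 194 in TG mice, against 111 and 174 in WT mice. The 57 tested genes of the 4 other platelet lists had r from -0.69 (Itgb1) to 0.97 (F5), with a median of 0.49, above 0 for 45 and below 0 for 12, among them Fli1 (-0.63) and Fermt3 (-0.45). Next after F5, Alox12, the platelet 12-lipoxygenase, ranked 42 (r = 0.94), the kinase gene Btk ranked 87 (r = 0.93) and Tubb1, the β1-tubulin of the platelet rim, ranked 90 (r = 0.93).

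Among 4 further lists of megakaryocyte and platelet genes, 0 genes passed the limma test between TG and WT mice of 12 months, with or without the replicate block. An unadjusted p under 0.05 was found for 1 of 13 surface receptors, 0 of 12 granule proteins, 3 of 19 signalling and cytoskeleton genes and 1 of 13 transcription factors, and the ordinary linear model called none of them. Of all 11189 genes tested 865 had such a p in the limma test, and 54.8% were lower in TG mice of 12 months. Of 19 listed surface receptors 13 were tested, 7 of them higher in TG mice, with a median log2 difference of 0.01. Gp5, another subunit of the von Willebrand factor receptor, had 176 and 252 in TG mice, against 264 and 164 in WT mice, and a log2 difference of 0.01 ± 0.28 (SE). Gp6, the collagen receptor, stood at 0.55 ± 0.29, and its signalling partner Fcer1g, also made by myeloid cells, at -0.35 ± 0.20 (SE). F2rl3, a thrombin receptor, stood at -0.65 ± 0.29, Itgb1, the widely made integrin β1, at 0.51 ± 0.19, and Cd36, a scavenger receptor, at -0.50 ± 0.33 (SE). Of the 13 tested, 1 passed between the replicates, beside 26.3% of all genes. It was Cd36, which was lower in replicate 2 at -0.57 ± 0.10 (SE, limma adjusted p = 0.00683). Gp1ba was not analysed here.

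Of 14 granule and secreted proteins 12 were tested, 5 of them higher in TG mice of 12 months, with a median of -0.04. Vwf, von Willebrand factor, also made by endothelium, had 101 and 162 in TG mice, against 255 and 181 in WT mice, and a log2 difference of -0.68 ± 0.30 (SE). Tgfb1, a growth factor stored in platelets and made by many cells, stood at -0.48 ± 0.35, and F13a1, the coagulation factor XIII A chain, also made by macrophages, at -0.30 ± 0.20 (SE). Sparc at 0.27 ± 0.40 and the granule proteoglycan core protein Srgn at 0.28 ± 0.21 were on the other side (SE). All 12 genes were higher in replicate 2, as were 55.1% of all genes. Of the 12, 4 passed the test, beside 13.6% of all genes in that direction. Among the 4 were Sparc at 0.62 ± 0.16 (SE, limma adjusted p = 0.0274) and Tgfb1 at 0.51 ± 0.15 (SE, limma adjusted p = 0.0382).

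Of 23 genes of platelet signalling and cytoskeleton 19 were tested, and 17 of them were lower in TG mice of 12 months, as were 54.8% of all genes, with a list median of -0.21. On the replicate 1 TG array of 12 months 16 of the 19 had their lowest value, as did 24.5% of all genes. Mylk, myosin light chain kinase, had 606 and 819.8 in TG mice, against 1213 and 1078 in WT mice, with a log2 difference of -0.69 ± 0.21 (SE). Gng11, a G protein γ subunit, had 423 and 523 in TG mice, against 816 and 682 in WT mice, with a log2 difference of -0.65 ± 0.18 (SE). Both had both TG values under both WT values, a pattern that 19.9% of all genes tested had, and neither passed (limma adjusted p = 0.586 for both). Tbxas1, thromboxane synthase, stood at -0.59 ± 0.26, Tubb1 at -0.24 ± 0.32 and the kinase Syk at -0.21 ± 0.26 (SE). Fermt3, the integrin activator kindlin-3, at -0.04 ± 0.24 and non-muscle myosin Myh9 at 0.21 ± 0.21 complete the named genes (SE). Between the replicates 5 were higher and 1 was lower in replicate 2 past the test, beside 26.3% of all genes in either direction. The lower was Fermt3 at -0.34 ± 0.07 (SE, limma adjusted p = 0.0147).

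Of 14 transcription factors of megakaryocytes 13 were tested, 9 of them lower in TG mice of 12 months, as were 54.8% of all genes, with a list median of -0.17. Gata1 had 277 and 346 in TG mice, against 326 and 289.5 in WT mice, a log2 difference of 0.01 ± 0.39 (SE). Its cofactor Zfpm1 stood at 0.53 ± 0.30, almost all of it from replicate 2 (1.00, against 0.06 in replicate 1), and Gfi1b, a repressor needed for platelet and red cell formation, at -0.25 ± 0.24 (SE). Meis1 at -0.52 ± 0.22 and Gata2 at -0.30 ± 0.19, both also factors of blood progenitors, were lower in TG mice in both replicates without passing (SE). Nfe2, which drives platelet release, was higher in replicate 2 by 0.84 ± 0.15 (SE, limma adjusted p = 0.00779), and so were Lyl1 by 0.76 ± 0.15 (SE, limma adjusted p = 0.0103) and Mef2c by 0.71 ± 0.11 (SE, limma adjusted p = 0.00433).

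Fli1, an ETS factor of megakaryocytes that is also made by endothelium and lymphocytes, went the other way. Read from 1 probe set, it had 316 to 422 in the replicate 2 mice, against 1004 to 1162 in the replicate 1 mice, with no overlap. It was lower in replicate 2 at -1.53 ± 0.08 (SE, limma adjusted p = 0.000214). Between TG and WT mice of 12 months it stood at -0.15 ± 0.78 (SE), at -0.15 within each replicate. That SE is from the model without the replicate block and so holds the difference between the replicates.

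**Figure D5:**
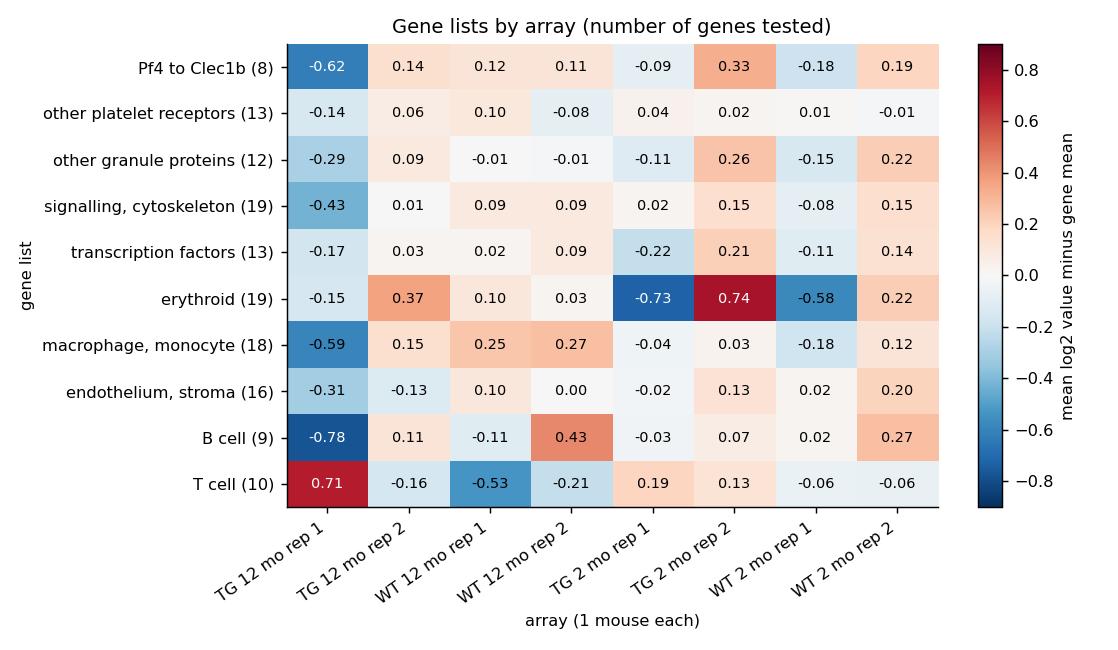
Mean over the genes of a list of log2(signal + 16) minus the gene's own mean, by array (columns, 1 mouse each) and list (rows, with the number of genes tested), as colour and numbers. The 8 genes from Pf4 to Clec1b are at -0.62 on the replicate 1 TG array of 12 months, beside -0.43 for platelet signalling and cytoskeleton, -0.78 for B cell and 0.71 for T cell genes.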

How the data were processed

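RNA of spleen cells from 8 mice was measured on 1 array each, and groups and replicate numbers were taken from the sample labels. The deposited values are intensities on a linear scale, made by the authors with GCOS 1.4 and MAS5 per the submitters' processing notes. The mean of each array without its lowest and highest 0.02 of values is 150.001, so each array was scaled by 1 factor, which leaves differences in cell make-up in the values. Precision is limited by the number of arrays.

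Of 45101 probe sets, 64 were controls, 34958 had 1 gene symbol, of which 34754 took their current name by gene identifier, 932 had several symbols and 9211 had none. Probe sets with a mean log2(signal + 16) under the median of all (a signal of 45.3) were dropped, and the brightest probe set stood for each gene. All 8 arrays entered 1 model with 4 group means, fitted with lmFit and eBayes (intensity trend) of limma 3.58.1 under R 4.3.3, leaving 4 residual degrees of freedom. For the replicates, the replicate number was added, with 3 residual degrees of freedom. The fits were checked on simulated data with independent noise, no shared replicate difference and planted changes far wider than the differences of the 8 genes. That check therefore does not cover differences as small as theirs. P-values are 2-sided and adjusted over 11189 genes in each of 6 comparisons, and measure the spread between these samples, which the labels call biologic replicates without further detail.

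Deviations of same-numbered mice from their group means correlated at 0.464 to 0.654 over 6 pairs of groups, so the numbers were taken to pair the mice and the replicate block was run as an alternative. Others were the pseudocount, the filter, quantile and cyclic loess normalization, averaging all probe sets of a gene, models without moderation or trend, and each array left out. Of the other platelet lists, the genes named are the 3 with the widest moderated difference at 12 months, the 3 brightest and some fixed names. The genes and lists were chosen with earlier results of these data known.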

Additional observations from a re-analysis of the deposited data

Results flagged for a closer look

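For 2 genes every TG to WT pair moved one way at 12 months and the opposite way at 2 months. Clec1b was lower in TG mice of 12 months, at -1.13 in replicate 1 and -0.04 in replicate 2, and higher in TG mice of 2 months, at 0.39 and 0.17. Its TG minus WT difference at 12 months minus that at 2 months was -0.86 on the log2 scale. Itga2b was lower in TG mice of 12 months, at -0.91 in replicate 1 and -0.15 in replicate 2, and higher in TG mice of 2 months, at 0.18 and 0.28. The same value for Itga2b was -0.76. Neither difference passed the limma test (adjusted p = 1.00 for both, 2 mice a group), and 7.27% of all genes tested had this pattern.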

How the results depend on the processing

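None of the 8 genes passed the test between TG and WT or between the ages under any alternative run, and no called difference changed its sign. The replicate block gave 5 genes past the test instead of 0 between TG and WT at 12 months and 21 instead of 1 between 12 and 2 months in TG mice, and changed no other call. A pseudocount of 1 and the ordinary linear model gave 0 genes in the second of these. The ordinary linear model gave 1 gene instead of 0 for TG minus WT at 12 months minus the same at 2 months. Leaving out 1 array at a time gave 0 to 7 genes between TG and WT at 12 months, 0 to 2 at 2 months, 0 to 4 between the ages in TG mice and 0 to 4 in WT mice. The median of the 8 log2 differences then ran from -0.17 to 0.33 for TG and WT at 2 months, from -0.79 to 0.0085 for the ages in TG mice, and from -0.19 (without replicate 1 of 2 months) to 0.23 (without replicate 2 of 2 months) for the ages in WT mice.

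Between the replicates, 628 genes passed in the ordinary linear model and 1191 to 2702 with 1 array left out, instead of 2940. Of the 8 genes, 1 passed with no filter, 1 without an intensity trend, 0 in the ordinary linear model and 1 to 5 with 1 array left out, instead of 4. That 1 gene was Itga2b each time. Cyclic loess and the averaging of probe sets each left 3, without Pf4. With standard errors of 0.25 to 0.41 on the log2 scale for TG minus WT, a p that misses the threshold does not show equal values. These standard errors hold the difference between the replicates, and with the replicate block they were 0.15 (Treml1) to 0.24 (Clec1b). A fit without 1 array rests on a lone mouse in that group, assumed to vary like the others.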
